A study of Saccharomyces cerevisiae with 24 samples.

Results

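The genes described here are 35 intron-containing genes of Saccharomyces cerevisiae that code for proteins of the small ribosomal subunit (RPS genes). They were taken by their open reading frame (ORF) identifiers from a fixed list that leaves out the snoRNA host RPS22B and the autoregulated genes RPS9A, RPS9B and RPS14B. All 35 have a probe, out of 5674 protein-coding genes on the array, and a value in each of the 24 columns. They form 19 families: 16 pairs with both the A and the B copy in the list, and RPS13, RPS25A and RPS29A on their own. The annotation at hand gives names and no exons, so the presence of an intron rests on the list.

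The study used chromatin immunoprecipitation with microarray readout (ChIP-chip) to see where splicing factors sit along the yeast genome. Each factor carried a C-terminal tag at its own locus: Prp40, Prp5, Prp19 and Spt5 a 9myc tag, Mud2, Lea1, Prp11, Prp2 and Brr2 a 13myc tag, and BBP and Sub2 a 3HA tag. For the RNA polymerase II column the labels name no tagged subunit. These 12 profiles came from cells in rich medium at an optical density of 0.6, except that for BBP the culture is not described. The other 12 columns were as follows. Prp40-9myc was followed in a cbc deletion strain, and in lightly fixed extracts with and without RNase. Mud2-13myc was also followed in lightly fixed extracts with and without RNase. Prp40-3myc was followed in spt5_194 cells, in cells given 80 µg/ml 6-azauracil for 30 minutes and in a control, all in SC-URA medium. Lea1-13myc and Brr2-13myc were followed in sub2_85 and SUB2 wild-type cells, all in SC-HIS medium and held at 37 °C for 30 minutes. Each column is 1 deposited value per gene in which 2 to 6 biological replicates had been combined. No spread between replicates can be computed and no test between groups was made, so every difference below is a description of 2 columns.

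Budding yeast has few introns, but they sit in many of its most heavily transcribed genes, and ribosomal protein genes supply a large part of all spliced transcripts. The spliceosome assembles on a transcript while RNA polymerase II is still copying the gene, so a splicing factor on nascent RNA can be crosslinked to the DNA below it. The U1 snRNP meets the 5′ splice site first, BBP and Mud2 bind near the branch point, the U2 snRNP replaces them there, and Brr2, Prp2 and Prp19 belong to later steps in which the complex becomes active. RPS proteins build the small subunit, whose head and body hold the decoding site and the mRNA channel between them.

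Values are log2 ratios, in all likelihood of immunoprecipitate over whole-cell extract, and their direction is not stated. Among the columns, 3 pairs had a Pearson correlation under -0.3 over the 6284 probes. These were the Mud2 profile and 6-azauracil at -0.34, RNase-treated Mud2 and spt5_194 at -0.36, and RNase-treated Mud2 and wild-type Lea1 at 37 °C at -0.32. Spearman's correlation was -0.40 for the first of these pairs and 0.05 and 0.04 for the other two, so their ranks showed no negative relation. Over the 35 genes alone Pearson's r was 0.04, -0.86 and -0.56 for the 3 pairs. In the pairs with RNase-treated Mud2, RPS18A stood apart from the other genes. It had 1.47 for RNase-treated Mud2, -3.93 with spt5_194 and -0.56 for wild-type Lea1 at 37 °C. Correlations without RPS18A were not computed. These 5 columns are treated as having no settled direction, and main results that rest on them are also given with the sign turned. A gene was called enriched at a log2 ratio of 1 or more, which is 2-fold. Column medians over all genes lay between -0.14 (Mud2) and 0.05 (Prp19). Arrays carry no counts, and their small number limits precision. Paralogous ORFs share sequence, so the A and B spots of a pair may report in part on each other's DNA. This was not tested, and no sequence of the probes was used here.

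**Figure D1:**
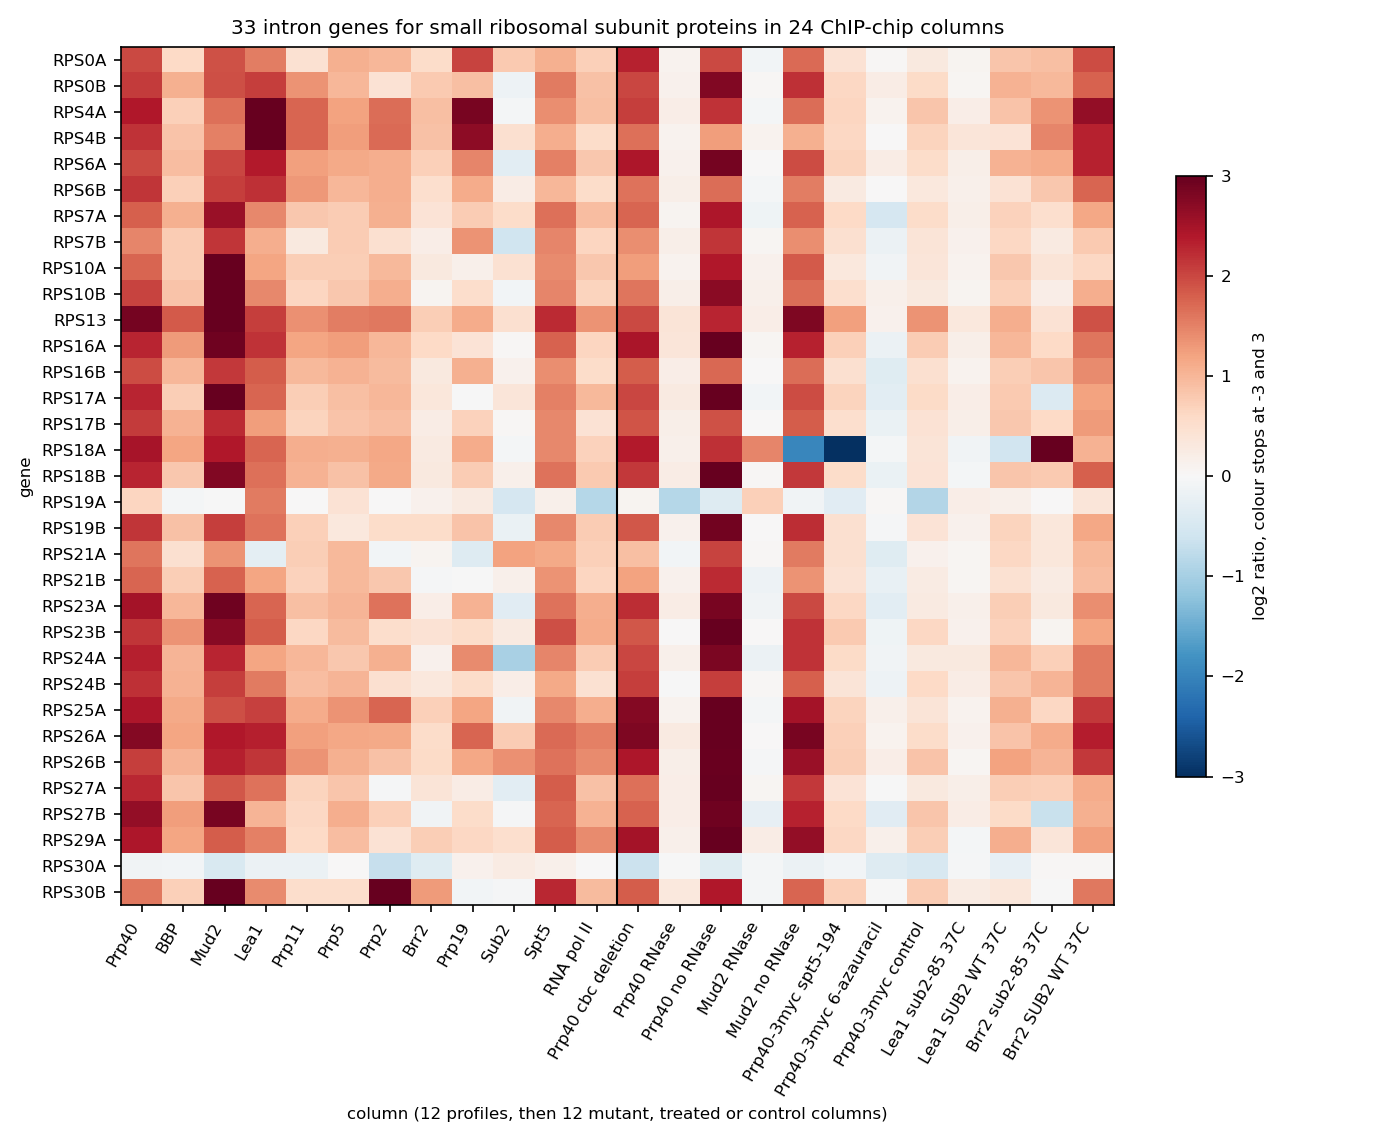
Log2 ratio of 33 of the 35 genes (rows) in 24 columns, with the 12 profiles left of the black line and mutant or treated columns left of their controls on the right. Colour stops at -3 and 3. RPS30A is pale across all columns, and RPS18A has single cells far from its neighbours, such as -3.93 with spt5_194 and 6.64 for Brr2 in sub2_85.

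Prp40, a protein of the U1 snRNP, stood high over nearly the whole list. Of the 35 genes, 33 had a Prp40 log2 ratio of at least 1, where 3.39% of all genes did. The median was 2.15, and the middle of the list was narrow, with quartiles of 1.97 and 2.40. RPS13 (YDR064W), the single gene for a body protein, was highest at 2.86, followed by RPS26A (YGL189C) at 2.76 and RPS27B (YHR021C) at 2.64. The lowest were RPS30A (YLR287C-A) at -0.11, RPS19A (YOL121C) at 0.65 and RPS7B (YNL096C) at 1.45. Of the 16 pairs, 14 had both copies enriched for Prp40, and in the other 2 it was the A copy of RPS19 and of RPS30 that missed the threshold.

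The branch point factors followed. Mud2, which binds beside BBP, had a median of 2.24 over the list and 33 genes enriched, against 12% of all genes. Its highest members were RPS10B (YMR230W) at 3.74, RPS13 at 3.55 and RPS17A (YML024W) at 3.26, and its lowest RPS30A at -0.45, RPS19A at -0.01 and RPS21A at 1.34. With the sign of the Mud2 column turned, the median is -2.24 and none of the 35 genes is enriched. BBP, the partner of Mud2, had a median of 1.00 and 17 genes enriched, against 1.04% of all genes. RPS13 led BBP at 1.84, followed by RPS23B at 1.34 and RPS16A at 1.29, while RPS30A (-0.08), RPS19A (-0.07) and RPS21A (0.49) were again at the low end. The scales of the columns differ, and on quantile normalised columns the median over the list was 1.52 for BBP and 0.98 for Mud2.

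The U2 snRNP protein Lea1 had a median of 1.62, with 33 genes enriched against 3.28% of all genes. The 2 genes for Rps4, a body protein, had the highest Lea1 values, 3.05 each, ahead of RPS6A at 2.39. RPS21A at -0.30 and RPS30A at -0.18 were the lowest, and RPS27B, among the highest for Prp40, was next at 1.02. Prp11, another U2 snRNP protein, had a median of 0.89, and 13 genes were enriched against 1.08% of all genes. RPS4A and RPS4B led this column too, at 1.75 each. Prp5, an ATPase needed for stable U2 binding at the branch point, had a median of 0.96 and 14 genes enriched, against 1.24% of all genes. For Prp5 the leaders were RPS13 at 1.53, RPS25A at 1.35 and RPS16A at 1.27.

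Among factors of spliceosome activation, Prp2 and Prp19 stood above Brr2. Prp2, the ATPase that remodels the complex before the first catalytic step, had a median of 0.98, values from -0.68 (RPS30A) to 2.98 (RPS30B) and 15 genes enriched, against 3.81% of all genes. RPS25A at 1.74 and RPS4B at 1.69 came next, and RPS21A at -0.08 and RPS27A at -0.05 were near the median of all genes. Prp19 had a median of 0.86 and 15 genes enriched, against 2.13% of all genes. Its highest members were RPS4A at 2.84, RPS4B at 2.69 and RPS0A at 2.04. RPS21A at -0.38, RPS30B at -0.08 and RPS17A at -0.02 were its lowest. Brr2, the helicase that unwinds U4 from U6 RNA, had a median of 0.42, and 1 gene, RPS30B at 1.28, was enriched, against 3.1% of all genes. Sub2, a helicase that also takes part in mRNA export, had a median of 0.13 and 2 genes enriched, RPS26B at 1.37 and RPS21A at 1.20, against 4.2% of all genes. Shares of 1 and 2 in 35 are near these backgrounds.

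Transcription itself was read by RNA polymerase II and by the elongation factor Spt5. RNA polymerase II had a median of 0.79 over the list, with 8 genes enriched against 8.51% of all genes. Spt5 had a median of 1.47, and 32 genes were enriched against 6.79% of all genes. For Spt5 the highest members were RPS30B at 2.25 and RPS13 at 2.24, and the lowest were RPS30A and RPS19A at 0.15 each. In the polymerase column RPS26A (1.52), RPS29A (1.42) and RPS26B (1.42) were highest, and RPS19A (-0.86), RPS30A (0.01) and RPS17B (0.42) lowest. On quantile normalised columns the list median was 0.38 for the polymerase, with 0 genes enriched, and 0.88 for Spt5, with 12 enriched. Shares of all genes on quantile normalised columns or with signs turned were not computed, here or elsewhere, so such counts have no background.

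**Figure D2:**
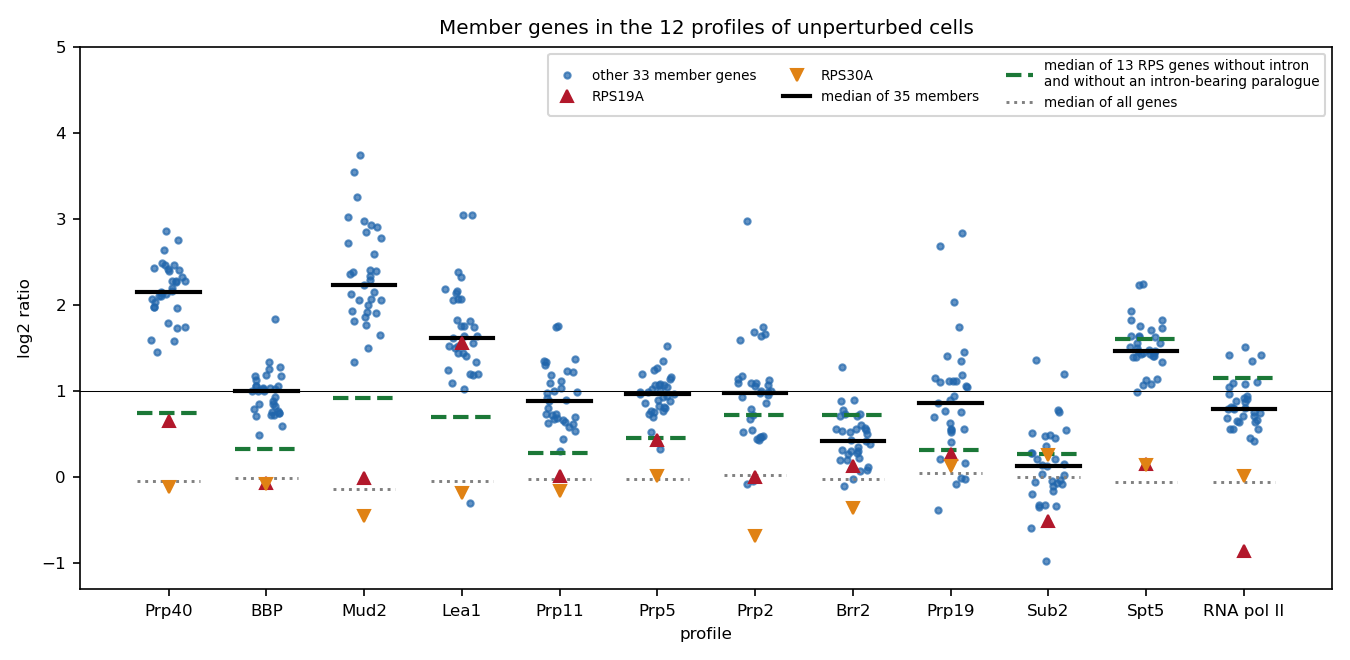
Log2 ratio (vertical axis) in the 12 profiles. Points are the other 33 genes, with RPS19A and RPS30A drawn as triangles, black bars the median of the 35 genes, green dashed bars the median of 13 intronless RPS genes, grey dotted bars the median of all genes, and the thin line a log2 ratio of 1. The 35 genes have a median of 2.15 for Prp40, against 0.75 for the intronless genes, and the order is the other way round for RNA polymerase II, with 0.79 against 1.15.

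Set beside RPS genes without an intron, the list was higher for the early splicing factors and lower for the polymerase. Of 16 intronless RPS genes, RPS22A, RPS25B and RPS29B have a paralogue with an intron, and the comparison here uses the other 13. The Prp40 median was 2.15 over the 35 genes and 0.75 over those 13, and 33 of the 35 lay above 0.75. Mud2 had medians of 2.24 and 0.93 (-2.24 and -0.93 with its sign turned, which reverses the order), Lea1 1.62 and 0.70, BBP 1.00 and 0.33, Prp11 0.89 and 0.28, Prp5 0.96 and 0.45, and Prp19 0.86 and 0.32, in each case with the 35 intron genes first. For Prp2 the medians were closer, at 0.98 and 0.72. The order was the other way for Brr2 with 0.42 against 0.73, Sub2 with 0.13 against 0.27, Spt5 with 1.47 against 1.61 and RNA polymerase II with 0.79 against 1.15. Intron genes of the large subunit, 51 of them measured, had medians much like those of the small subunit. These were 2.15 for the RPS list and 2.14 for the RPL genes with Prp40, 2.24 and 2.26 with Mud2, 1.62 and 1.67 with Lea1, and 0.79 and 0.92 with the polymerase. No test of these differences was possible.

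Within the list, genes high for the polymerase were also high for Spt5 and, less closely, for Prp40. Spearman's correlation between a factor and the polymerase over the 35 genes was 0.75 for Spt5, 0.53 for Prp40, 0.45 for BBP, 0.44 for Brr2 and 0.40 for Mud2 (-0.40 with its sign turned). It was between 0.14 (Prp19) and 0.27 (Prp5 and Prp2) for Prp19, Sub2, Prp11, Lea1, Prp2 and Prp5. The points share arrays and paralogous sequence, so these values are descriptions. Without RPS19A and RPS30A, the 2 genes lowest for the polymerase, it was 0.70 for Spt5, 0.44 for Prp40, 0.28 for Mud2 and 0.06 for Prp11. With 1 mean value per family it was 0.76 for Spt5, 0.76 for Prp40 and 0.71 for BBP over 19 families.

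In RPS25A, RPS26A, RPS26B and RPS29A the intron lies in the 5′ untranslated region, outside the ORF, as background knowledge. Rps26 lines the mRNA exit channel, and Rps25 and Rps29 are head proteins. These 4 genes had RNA polymerase II values of 1.08, 1.52, 1.42 and 1.42 in that order, so all 4 were enriched. The other 31 had a polymerase median of 0.76 and a highest value of 1.35 (RPS13), and 4 of them were enriched. For Spt5 the 4 genes lay between 1.44 and 1.83, inside the range of the other 31, whose median was 1.47. Their Prp40 values were 2.42, 2.76, 2.07 and 2.44, against a median of 2.14 in the other 31. In the Mud2 column without RNase they were the highest of the list apart from RPS13 at 2.81, with 2.50 for RPS25A, 2.86 for RPS26A, 2.59 for RPS26B and 2.63 for RPS29A. The median of the other 31 in that column was 1.83. The standard Mud2 profile, whose direction is not settled, did not set them apart in this way. There the 4 genes lay between 1.82 and 2.41, and the other 31 had a median of 2.24 and a highest value of 3.74. These 4 genes were grouped after the polymerase values had been seen, so the grouping is a description.

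RPS25 and RPS29 each pair an intron copy with an intronless copy. Prp40 stood at 2.42 over RPS25A and at 2.53 over the intronless RPS25B. It stood at 2.44 over RPS29A and at 2.15 over the intronless RPS29B. Mud2 gave 1.92 for RPS25A against 2.10 for RPS25B, and 1.82 for RPS29A against 1.99 for RPS29B. With the sign of Mud2 turned all 4 of these values are negative. Lea1 gave 2.06 for RPS25A against 2.03 for RPS25B. Both intronless copies therefore had the Prp40 level of intron genes, above the median of 0.75 of the other intronless RPS genes. The A and B ORFs of each family code for nearly the same protein, and how much of the B signal comes from A copy DNA was not tested. Over the 24 columns the intron copy was higher in 15 for RPS25 and in 16 for RPS29, or in 16 and 15 with the 5 columns of unsettled direction turned. One column parted RPS25 widely: Prp2 had 1.74 for RPS25A and 0.57 for RPS25B. Outside the list, RPS22B with its introns had a Prp40 value of 2.50 against 1.66 for the intronless RPS22A, and a Mud2 value of 4.15 against 1.81.

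**Figure D3:**
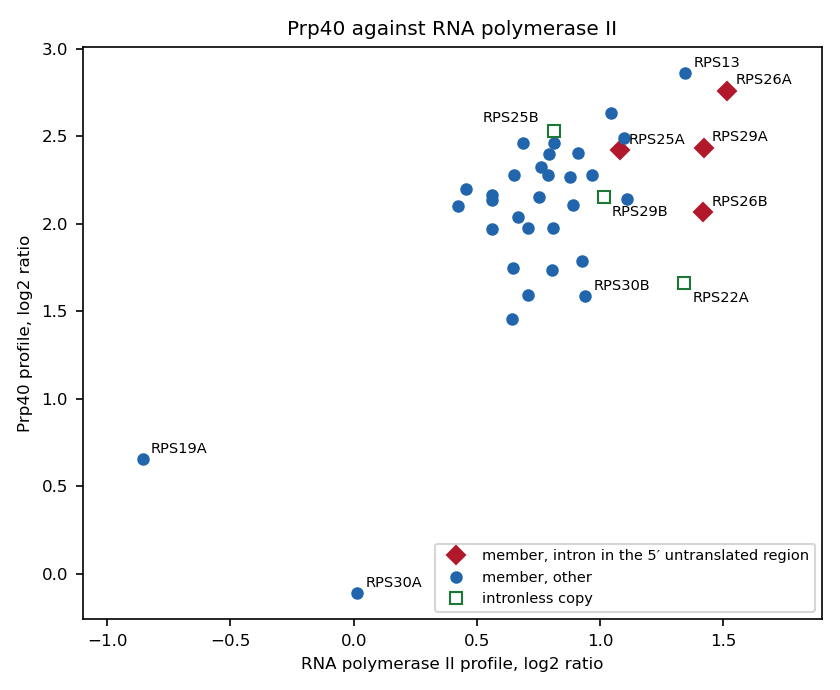
Prp40 log2 ratio (vertical axis) against RNA polymerase II log2 ratio (horizontal axis) for the 35 genes and 3 intronless copies. Red diamonds are the 4 genes with an intron in the 5′ untranslated region, at 1.08 to 1.52 for the polymerase, blue points the other 31, and green squares RPS22A, RPS25B and RPS29B at 1.66, 2.53 and 2.15 for Prp40.

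Body proteins of the small subunit account for 23 of the 35 genes. Rps0 is needed for late maturation of the subunit. RPS0A and RPS0B had Prp40 values of 1.98 and 2.11 and Mud2 values of 1.91 and 1.93, but Prp19 gave 2.04 for RPS0A and 0.90 for RPS0B, and Prp11 0.45 and 1.34. The copies of RPS4 differed by less than 1 in all 24 columns, and both were high for U2 proteins and Prp19. RPS4A and RPS4B had 2.40 and 2.17 for Prp40, 1.67 and 1.69 for Prp2, and 0.89 each for Brr2, among the 3 highest Brr2 values of the list. Rps6 is a phosphorylated protein at the foot of the subunit. RPS6A and RPS6B had Prp40 values of 1.98 and 2.13 and Lea1 values of 2.39 and 2.19. RPS7A was above RPS7B in 11 of 12 profiles (10 with Mud2 turned), with Prp40 at 1.79 and 1.45 and Sub2 at 0.55 and -0.59.

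RPS13 was enriched in 10 of 12 profiles, all but Brr2 (0.74) and Sub2 (0.48), and was highest of the list for Prp40, BBP and Prp5. RPS25A, RPS26A and RPS26B were also enriched in 10 profiles. Over all 24 columns RPS13 was enriched in 17 and RPS26B in 16, and each in 14 with the 5 columns of unsettled direction turned. Rps21 sits at the back of the subunit, next to Rps0. RPS21A and RPS21B had Mud2 values of 1.34 and 1.77 and low Prp19 values of -0.38 and -0.01. Lea1 parted them, at -0.30 and 1.20.

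Rps23 reaches into the decoding site. RPS23A and RPS23B had Prp40 values of 2.49 and 2.14 and polymerase values of 1.10 and 1.11, while Prp2 gave 1.64 for RPS23A and 0.52 for RPS23B. RPS24A and RPS24B had 2.32 and 2.20 for Prp40 and differed most for Sub2, at -0.97 and 0.21. RPS26A and RPS26B parted for Prp40, at 2.76 and 2.07, for Sub2, at 0.76 and 1.37, and for Prp19, at 1.75 and 1.15. They were closer for Mud2, at 2.41 and 2.34, and for Lea1, at 2.32 and 2.14. The zinc-binding Rps27 comes from RPS27A and RPS27B, which had Prp40 values of 2.27 and 2.64 and Mud2 values of 1.86 and 2.85. In Lea1 their order was the opposite, with 1.62 for RPS27A and 1.02 for RPS27B. For Brr2 RPS27B was below zero at -0.10, against 0.39 for RPS27A.

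Head proteins account for the other 12 genes. Rps10 lies at the mRNA entry side. RPS10A and RPS10B had Mud2 values of 3.02 and 3.74, Prp40 values of 1.73 and 2.04, and Brr2 values of 0.28 and 0.08. Rps16 has a tail that reaches the tRNA in the decoding centre. RPS16A was above RPS16B in 10 of 12 profiles (9 with Mud2 turned), with Prp40 at 2.28 and 1.97 and Mud2 at 2.91 and 2.13. RPS17A and RPS17B had 2.28 and 2.10 for Prp40 and 3.26 and 2.24 for Mud2. Rps18 contacts the large subunit. RPS18A and RPS18B had Prp40 values of 2.46 and 2.28 and Mud2 values of 2.40 and 2.78. RPS17B lies close to RPS18A on its chromosome, with 2 genes between them in the RefSeq annotation, and RPS17A lies close to RPS18B, with 1 gene between. Medians over head and body genes were 2.21 and 2.14 for Prp40, 2.32 and 2.15 for Mud2, and 0.72 and 0.81 for the polymerase. They were further apart for Prp19 with 0.67 over head and 1.04 over body genes, for Brr2 with 0.30 and 0.51, and for Sub2 with 0.034 and 0.21.

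Paralogue copies mostly differed by less than the 2-fold used as a threshold. Over 16 pairs and 12 profiles, 17 of 192 differences reached 1 log2 unit in size, of which 10 came from RPS30 and RPS19. The median absolute difference between copies ran from 0.09 (Prp5) to 0.54 (Sub2). The same median over pairs of genes from different families ran from 0.25 (Prp5) to 0.64 (Mud2). How many of those pairs reached 1 was not computed. By these medians copies were closer in 10 of 12 profiles, all but BBP and Sub2, and in 18 of all 24 columns. Over the 24 columns 36 of 384 differences between copies reached 1. In 22 RPL intron pairs 22 of 264 differences reached 1 in the profiles, and 34 of 528 in the 24 columns. Next to RPS30 and RPS19, the pairs furthest apart by their median absolute difference over the profiles were RPS0 (0.48), RPS27 (0.36) and RPS7 (0.34). RPS26 and RPS4 were among the closest, at 0.14 each.

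**Figure D4:**
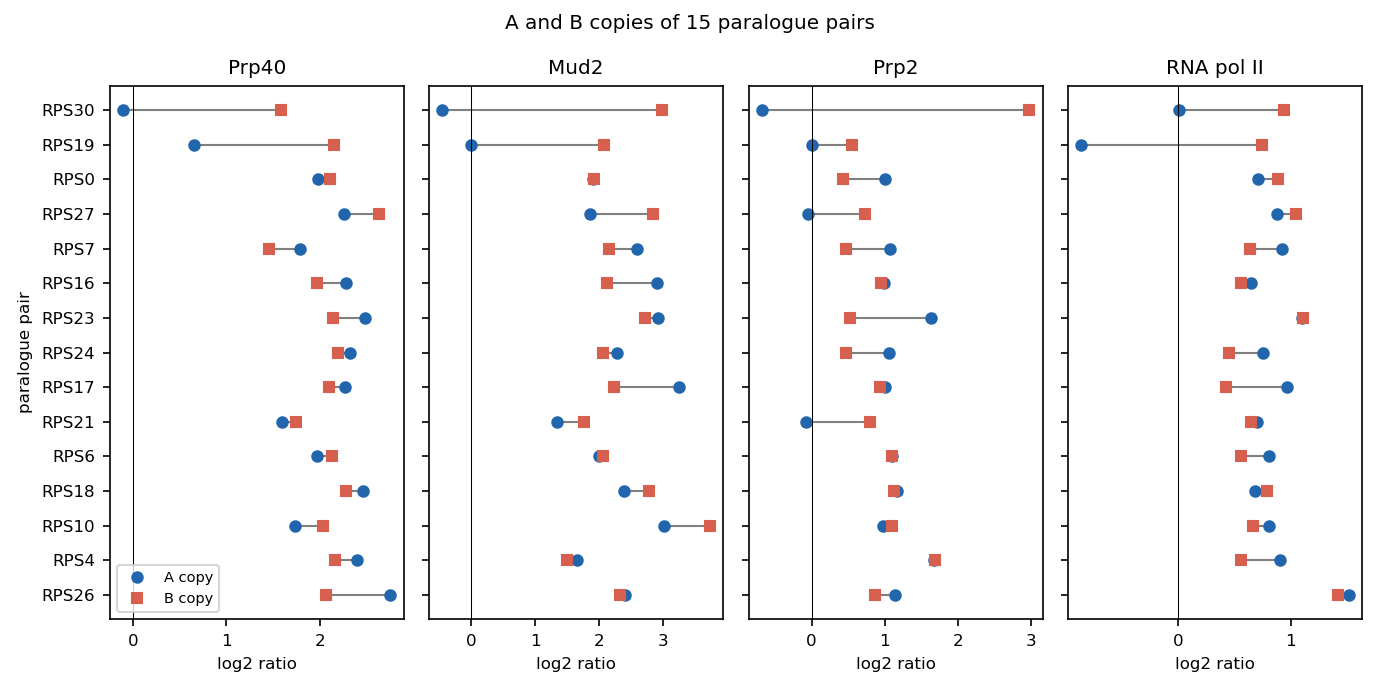
A copy (blue circles) and B copy (red squares) of 15 of the 16 pairs on the log2 ratio scale for Prp40, Mud2, Prp2 and RNA polymerase II. Pairs run from the largest median absolute difference over the 12 profiles (RPS30, 1.26) at the top to the smallest shown (RPS26, 0.14) at the bottom.

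RPS30A lay between -0.68 and 0.25 in all 24 columns, while its paralogue was high in many. Rps30, a small body protein by the mRNA entry channel, is encoded by both. RPS30A had -0.45 for Mud2, -0.18 for Lea1, -0.68 for Prp2, -0.35 for Brr2, 0.15 for Spt5 and 0.01 for RNA polymerase II. RPS30B (YOR182C) had 2.98, 1.41, 2.98, 1.28, 2.25 and 0.94 in the same order. RPS30A was enriched in none of the 24 columns and RPS30B in 10 (9 with the 5 columns turned). Polymerase and Spt5 were low over RPS30A together with the splicing factors. The adjoining genes in the RefSeq annotation, YLR287C and MEC3, had polymerase values of -0.18 and -0.63.

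RPS19A was the other low gene. Rps19, a head protein, is needed for processing of the small-subunit rRNA precursor. RPS19A had 0.65 for Prp40, -0.01 for Mud2, 0.00 for Prp2, 0.15 for Spt5 and -0.86 for the polymerase, against 2.15, 2.07, 0.55, 1.43 and 0.75 for RPS19B. Lea1 was close in both, with 1.56 for RPS19A and 1.64 for RPS19B, and Prp5 was higher over RPS19A, with 0.44 against 0.33. RPS19A was enriched in 1 of 24 columns and RPS19B in 8 (7 with the 5 columns turned). Whether the RPS19A and RPS30A spots report the loci they are named for was not tested.

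RPS18A followed its list in the 12 profiles and left it in 5 other columns. It stood at -3.93 with spt5_194, where RPS18B had 0.56 and the list median was 0.56. For Mud2 it stood at 1.47 with RNase and -1.96 without, where RPS18B had 0.03 and 2.12. For Lea1 in SUB2 wild type it stood at -0.56, where RPS18B had 0.83. For Brr2 it stood at 6.64 in sub2_85 cells, the upper limit of the scale, against 1.03 in SUB2 wild type, where RPS18B had 0.78 and 1.80. The genes on either side of RPS18A, UTP6 and YHP1, had 0.20 and 0.33 with spt5_194 and -0.49 and -0.18 for Brr2 in sub2_85. With their signs turned, RPS18A would stand at 3.93 with spt5_194, at -1.47 for Mud2 with RNase and at 0.56 for Lea1 in SUB2 wild type. The genes beside RPS18A and RPS30A were looked up after these values had been seen.

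The cbc deletion, named for the nuclear complex that binds the mRNA cap, was set against the Prp40 profile. Members were slightly lower on the whole, with medians of 1.99 in the deletion strain and 2.15 in the profile and a median difference of -0.22, where all genes had -0.04. In the deletion strain 32 genes were enriched, against 3.23% of all genes. Of the 35 genes, 27 were lower and 8 higher. The shares of all genes lower or higher by any amount were not computed, here and in the changes below. None reached a difference of -1, against 0.763% of all genes, and none reached 1, against 0.0887%. RPS13 differed most, with 1.99 in the deletion strain and 2.86 in the profile, followed by RPS27B with 1.77 and 2.64. The RPS21A difference was -0.69. On the other side, RPS6A had 2.42 in the deletion strain and 1.98 in the profile, RPS26B 2.42 and 2.07, and RPS25A 2.77 and 2.42. All 4 genes with an intron in the 5′ untranslated region were among the 8 that were higher, but RPS26A and RPS29A by only 0.03 and 0.05. The median difference was -0.15 for intron RPL genes and -0.29 for all 16 intronless RPS genes, with RPS22A, RPS25B and RPS29B included.

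With RNase, Prp40 values were low over the whole list. Lightly fixed extracts had a median of 0.16 with RNase and 2.43 without, and a median difference of -2.34, which is 5.06-fold lower. No member was enriched with RNase, against 0.3% of all genes, and 33 were without, against 4.92%. Of the 35 genes, 33 were lower by 1 or more, against 4.79% of all genes, and none was higher by 1, against 0.194%. The largest differences were those of RPS25A, with 0.10 with RNase and 3.37 without, RPS29A, with 0.15 and 3.32, and RPS23B, with 0.01 and 3.10. RPS19A (-0.85 with RNase and -0.39 without) and RPS30A (-0.01 and -0.35) were the 2 that did not reach the threshold, and neither was above 0 without RNase. The highest values with RNase were those of RPS13 (0.40) and RPS16A (0.37). The RNase column was narrow, and 94.7% of all genes lay below the list median of 0.16. All 16 intronless RPS genes, with RPS22A, RPS25B and RPS29B included, had a median difference of -1.24. On quantile normalised columns, where the narrow RNase column is stretched, the median difference was -0.86 and 15 of 35 genes reached -1.

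Mud2 was also lower with RNase. One member, RPS18A, was enriched with RNase, against 0.458% of all genes, and 32 were without, against 3.98%. The median was 0.01 with RNase and 1.96 without, the median difference -1.94, and 31 genes were lower by 1 or more, against 3.7% of all genes. One gene, RPS18A, was higher by 1 or more, against 1.02%. RPS26A had 0.02 with RNase and 2.86 without, RPS26B -0.04 and 2.59, and RPS13 0.20 and 2.81. RPS4B, at 0.10 and 1.06, had the smallest difference among genes enriched without RNase. RPS19A had 0.71 and -0.11. Turning the sign of the RNase column gives a median difference of -1.89 with 32 genes lower by 1 or more.

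**Figure D5:**
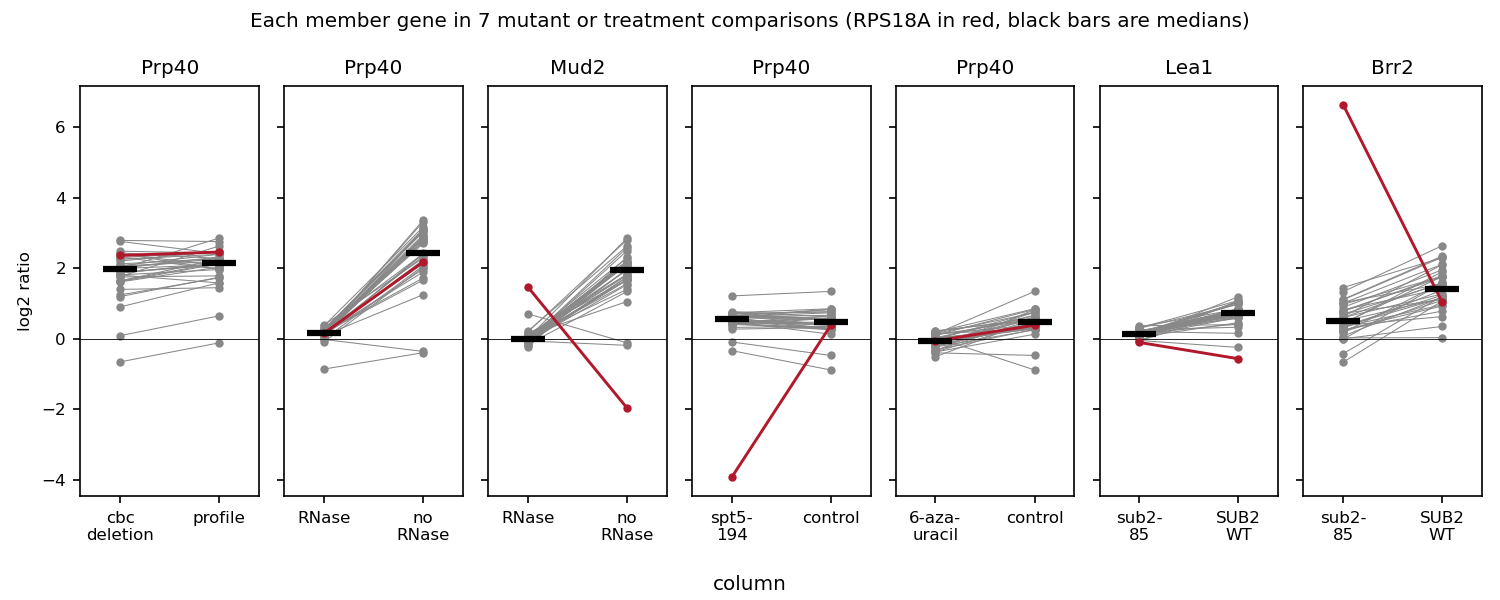
Log2 ratio (vertical axis) of each of the 35 genes in 7 comparisons, mutant or treated column on the left of each panel and its control on the right, joined by a line. Black bars are medians, for example 0.16 with and 2.43 without RNase for Prp40, and RPS18A is red.

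Short fixation without RNase was compared with the standard profile of the same factor. Whether these columns differ in more than fixation was not tested. For Prp40 the medians were 2.43 after short fixation and 2.15 in the profile. The median difference was 0.49, where all genes had -0.03, and 24 of 35 genes were higher. One gene, RPS19A, was lower by 1 or more, against 0.106% of all genes, and none was higher by 1, against 0.302%. RPS23B (3.10 and 2.14), RPS25A (3.37 and 2.42) and RPS16A (3.18 and 2.28) were highest, and RPS4B (1.26 and 2.17) and RPS13 (2.29 and 2.86) were lower. For Mud2 the medians were 1.96 after short fixation and 2.24 in the profile, and the median difference -0.41. Of the list 5 genes were lower by 1 or more, against 11.1% of all genes, a share near that background, and none was higher by 1, against 5.96%. RPS18A was lowest, with -1.96 after short fixation and 2.40 in the profile. RPS10B had 1.68 and 3.74, RPS17A 1.96 and 3.26, and RPS29A, the highest difference, 2.63 and 1.82. Both median differences depend on the scale, since quantile normalised columns gave -0.033 for Prp40 and 0.32 for Mud2. The Mud2 difference is 4.35 if the sign of the Mud2 profile is turned.

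Elongation was perturbed in the Prp40-3myc strains, and both comparisons share 1 control column. That control had a low median of 0.47, against 2.15 in the Prp40-9myc profile, a median difference of -1.61. Of the list 33 genes were lower by 1 or more, against 3.02% of all genes, and none was higher by 1, against 0.355%. Tag and medium differ between these 2 columns and cannot be told apart. RPS23A had 0.27 in the control and 2.49 in the profile, RPS26A 0.56 and 2.76, and RPS18A 0.39 and 2.46. RPS13 had the highest value in the control, 1.35, and was the 1 member enriched in the control, against 0.952% of all genes.

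The spt5_194 mutation, in the gene of the elongation factor Spt5, left the list close to its control. Medians were 0.56 in spt5_194 and 0.47 in the control. The median difference was 0.06, where all genes had 0.02, with 21 genes higher and 14 lower. RPS18A was the 1 gene lower by 1 or more, against 2.2% of all genes, and none was higher by 1, against 0.705%. The highest differences were those of RPS19A (-0.33 in spt5_194 and -0.88 in the control), RPS30A (-0.09 and -0.47) and RPS21A (0.49 and 0.13). RPS13 had 1.22 and 1.35. Turning the sign of the spt5_194 column gives a median difference of -0.99, with 17 genes lower by 1 or more.

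6-Azauracil, which depletes guanine nucleotides and slows elongation, went with lower Prp40 over the list. Medians were -0.06 with the drug and 0.47 in the control. The median difference was -0.58, where all genes had 0.04, and 33 of 35 genes were lower. Of these 3 reached -1, against 0.705% of all genes, and none was higher by 1, against 0.881%. The 3 genes were RPS13 (0.14 with the drug and 1.35 in the control), RPS27B (-0.34 and 0.83) and RPS7A (-0.51 and 0.55). No member was enriched with the drug, against 0.916% of all genes. RPS19A was the highest, at 0.04 with the drug and -0.88 in the control, and RPS6A had the highest level with the drug, 0.23. On quantile normalised columns 14 genes reached -1 and 1 was higher by 1. The median difference was -0.55 for intron RPL genes and -0.23 for all 16 intronless RPS genes. If the sign of this column is turned, the median difference is -0.38 and 2 genes reach -1.

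Loss of Sub2 function was tested with the temperature-sensitive sub2_85 allele at 37 °C. Lea1 had a median of 0.15 in sub2_85 and 0.74 in SUB2 wild type. The median difference was -0.59, where all genes had -0.01, and 32 of 35 genes were lower. RPS26B (0.06 and 1.20) and RPS29A (-0.06 and 1.09) were the 2 genes lower by 1 or more, against 0.335% of all genes, and none was higher by 1, against 1.08%. RPS0B followed with 0.07 and 1.04. RPS4B had the highest value in the mutant, 0.37, against 0.41 in wild type. In the wild type 6 genes were enriched, against 0.441% of all genes, and in the mutant none, against 0.670%. All 16 intronless RPS genes had a median difference of -0.48 and intron RPL genes -0.60. With the sign of the wild-type column turned the median difference is 0.88.

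Brr2 in the same cells had a median of 0.50 in sub2_85 and 1.43 in SUB2 wild type. The median difference was -0.90, where all genes had 0.01, and 34 of 35 genes were lower. Of these 15 were lower by 1 or more, against 2.61% of all genes, and RPS18A was the 1 gene higher by 1 or more, against 2.03%. RPS27B had -0.66 in sub2_85 and 1.07 in wild type, RPS17A -0.42 and 1.21, and RPS30B was at -0.01 in sub2_85. RPS4A and RPS4B were the highest after RPS18A in the mutant, at 1.34 and 1.46, against 2.64 and 2.30 in wild type. The median difference was -1.07 for intron RPL genes and -0.47 for all 16 intronless RPS genes.

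The wild-type columns at 37 °C also differed from the profiles of the same factors in rich medium. Temperature and medium differ together and cannot be told apart. Brr2 was higher over every member at 37 °C, with medians of 1.43 at 37 °C and 0.42 in the profile. The median difference was 1.05, where all genes had -0.03. Of the 35 genes 19 were higher by 1 or more, against 3.44% of all genes, and none was lower by 1, against 3.82%. RPS26A had 2.35 at 37 °C and 0.55 in the profile, RPS4A 2.64 and 0.89, and RPS6A 2.32 and 0.71. At 37 °C 29 of 35 genes were enriched for Brr2, against 3.35% of all genes. Lea1 was lower, with medians of 0.74 at 37 °C and 1.62 in the profile, and a median difference of -0.94. Of the list 13 genes were lower by 1 or more, against 3.39% of all genes, and none was higher by 1, against 0.532%. RPS4B had 0.41 at 37 °C and 3.05 in the profile, RPS18A -0.56 and 1.75, and RPS4A 0.85 and 3.05, while RPS21A had 0.62 and -0.30. The Lea1 difference depends on the scale, since quantile normalised columns gave 0.17, with 4 genes lower and 6 higher by 1 or more. With the sign of the 37 °C Lea1 column turned it is -2.37.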

How the data were processed

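ChIP and whole-cell extract DNA were amplified, labelled with Cy5 and Cy3 and hybridised to spotted yeast ORF arrays, with dyes reversed in at least 1 replicate, per the labels' protocols. The deposited values are log2 ratios of the 2 channels, into which the authors had combined 2 to 6 biological replicates. No label states their direction, how replicates were combined, or normalisation. The scale ends at a 100-fold ratio in either direction (6.64), where 1 member value lies. Probes were named through the RefSeq gene table of assembly R64, which gave 5674 nuclear protein-coding genes, and 610 of 6284 probes were not used. Values were used as deposited. Per column, medians, ranges and counts at 2-fold were taken over members and over all genes, and changes are differences of columns (Python 3.11.15, pandas 2.3.3, SciPy 1.17.1). On simulated data only quantile normalisation and the calling of planted shifts were checked, and differences between columns were not. Alternatives were quantile normalisation, centring, means, family means, other thresholds and turned signs. Each group has 1 combined column, so there is no test. Any member could be named. Those given for a column or change are its 3 highest or lowest, with pairs ranked by median absolute difference, and exceptions are stated. The members and lists were chosen with earlier results of these data known. Some genes are not reported here by name, and 2 members are not drawn by name in the figures.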

Additional observations from a re-analysis of the deposited data

Results flagged for a closer look

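Opposite directions of a contrast in 2 factors were looked for, and none of these differences could be tested with 1 column per group. Genes opposite in 2 factors were counted over the 35 genes only. The share of all genes that were opposite was not computed, so these counts have no background. At 37 °C in SC-HIS medium against rich medium, Lea1 had a median difference of -0.94 over the 35 genes and Brr2 1.05, and 24 genes moved beyond 1.5-fold in opposite directions. The Lea1 value has the other sign on quantile normalised columns, and with the sign of the 37 °C Lea1 column turned it is -2.37 and 29 genes are opposite. Short fixation against the standard profile gave 0.49 for Prp40 and -0.41 for Mud2, with 8 genes beyond 1.5-fold in opposite directions, and both values change sign on quantile normalised columns. With the sign of the Mud2 profile turned, Mud2 had 4.35 and 1 gene was opposite. With RNase against no RNase, 1 gene moved beyond 1.5-fold in opposite directions: RPS18A, with -2.02 for Prp40 and 3.43 for Mud2. With the sign of the Mud2 RNase column turned its Mud2 difference is 0.48 and no gene is opposite beyond 1.5-fold.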

How the results depend on the processing

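Of 443 alternative values for 96 results, 348 stayed close to the reported value, 86 moved and 9 were reversed, where a median moved if it differed by over 0.25 log2 units and 1.5 times, and a count if by over 1.5 times. A further 6 values changed sign, all from a main value under 0.1 in size. Centring on the column median and means in place of medians moved none. For counts here and above, shares of all genes at 1.5-fold, at 3-fold, on quantile normalised columns and with signs turned were not computed. Nor were shares of all genes lower or higher by any amount in a change. Those counts therefore have no background beside them. Counts of enriched genes at 1.5-fold were 32 for BBP, 30 for Prp11, 31 for Prp5, 24 for Prp2, 9 for Brr2, 4 for Sub2, 28 for RNA polymerase II, 11 for the Prp40-3myc control, 16 for spt5_194, 2 for Mud2 plus RNase, 27 for Lea1 in SUB2 wild type and 17 for Brr2 in sub2_85, and 42 paralogue differences reached 1.5-fold. At 3-fold the counts were 1 for BBP, 18 for Lea1, 2 for Prp11, 6 for Prp2, 4 for Prp19, 12 for Spt5, 14 for Brr2 in SUB2 wild type and 1 for Brr2 in sub2_85. They were 0 for Prp5, Brr2, Sub2, RNA polymerase II, the Prp40-3myc control, spt5_194, Mud2 plus RNase and Lea1 in SUB2 wild type. Quantile normalised columns gave medians of 1.52 for BBP, 0.98 for Mud2, 1.38 for Prp11, 0.88 for Spt5, 0.38 for RNA polymerase II, 1.39 for Prp40 without RNase, 0.67 with RNase and 1.36 for Lea1 in SUB2 wild type. Their enriched genes numbered 31 for BBP, 17 for Mud2, 30 for Prp11, 30 for Prp5, 7 for Prp2, 12 for Spt5, 0 for RNA polymerase II, 7 for the Prp40-3myc control, 6 for spt5_194, 8 for Prp40 plus RNase, 2 for Mud2 plus RNase, 28 for Lea1 in SUB2 wild type and 4 for Lea1 in sub2_85. In changes they gave -0.86 for Prp40 with RNase (15 genes lower by 1), -1.0 for Lea1 in sub2_85 (18 lower), -1.01 for the Prp40-3myc control (18 lower), -0.033 for Prp40 after short fixation (8 lower), 0.32 for Mud2 after short fixation (3 lower and 6 higher) and 0.17 for Lea1 at 37 °C (4 lower and 6 higher). Further counts were 3 lower and 3 higher in the cbc deletion, 2 higher for Mud2 with RNase, 14 lower and 1 higher with 6-azauracil, and 9 higher for Brr2 at 37 °C. Spearman's correlation with the polymerase was 0.71 for BBP and 0.40 for Prp19 over families, and Pearson's r was 0.72 for BBP and 0.46 for Prp11. With signs turned, levels were -2.24 for Mud2, -0.56 for spt5_194 and -0.74 for Lea1 in SUB2 wild type, and Spearman's correlation of Mud2 with the polymerase was -0.40. Turned changes were 0.88 for Lea1 in sub2_85 (0 lower and 11 higher), -2.37 for Lea1 at 37 °C (33 lower), 4.35 for Mud2 after short fixation (0 lower and 32 higher) and -0.99 for spt5_194 (17 lower and 2 higher), and 0 genes were higher for Mud2 with RNase. Without RPS18A, RPS19A and RPS30A, 0 genes were enriched for Mud2 plus RNase, 0 were higher for Mud2 with RNase or Brr2 in sub2_85, and 0 were lower with spt5_194 or for Prp40 after short fixation. Causes were not tested. No paired analysis was possible because each group has 1 combined column, and for the same reason no replicate could be left out. Signal over background per spot was not analysed here.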

Other observations

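Among RPS genes without an intron, RPS8B and RPS8A had splicing factor values in the range of the intron genes. These genes were picked after their values had been seen. RPS8B had 2.55 for Prp40, 2.10 for Mud2 and 3.07 for Lea1, with 1.00 for RNA polymerase II. RPS8A had 1.54, 2.19 and 2.94 for the same factors, 3.33 for Prp2 and 0.96 for the polymerase. Over RPS31, which codes for a ubiquitin fusion and has no intron, Prp40 stood at 1.80 and the polymerase at 1.96.

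The autoregulated genes left out of the list had Prp40 values near its median of 2.15 and higher Prp5 values. Prp40 had 1.87 for RPS9A, 2.00 for RPS9B and 2.09 for RPS14B. For Prp5 these genes had 1.54, 1.39 and 1.46, where the list median was 0.96. RNA polymerase II stood at 1.73 over RPS9A, 1.55 over RPS14B and 0.80 over RPS9B, against a list median of 0.79. For Lea1 RPS9A reached 3.06, next to 3.05 for RPS4A and RPS4B. RPS9B had 2.40 and RPS14B 1.62 for Lea1, where the list median was 1.62.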
